A study of Homo sapiens with 18 samples.

Results

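The genes described here encode the splicing machinery and its regulators: the SR proteins (symbols beginning SRSF), the protein subunits of small nuclear ribonucleoproteins (SNRP), the SF3A, SF3B and U2AF factors, the PRPF factors, the LSM proteins and the heterogeneous nuclear ribonucleoproteins (HNRNP). They were chosen by symbol alone, with 7 patterns of letters, and 88 of the 23621 genes in the deposited table matched. Of these, 84 reached 1 FPKM in at least 3 libraries and were tested, among 12771 tested genes. RNA came from GIST-T1, a human cell line of a gastrointestinal stromal tumor driven by the tyrosine kinase receptor KIT. The treatments were the solvent DMSO, imatinib at 500 nM for 6 h or 24 h, JQ1 at 500 nM for 6 h or 24 h, or imatinib and JQ1 together for 24 h, each drug at 500 nM. The labels give no time for DMSO. Imatinib inhibits KIT and a few other tyrosine kinases, and JQ1 displaces the BET bromodomain proteins from acetylated chromatin. Each of the 6 groups had 3 libraries, all of this line, and the labels do not say whether the 3 came from separate cultures. The p-values therefore rest on the spread among libraries alone, and that spread may be technical.

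Splicing removes introns from pre-mRNA on the spliceosome, a large assembly rebuilt on every intron. The U1 and U2 small nuclear ribonucleoproteins recognise the start of the intron and its branch point, with SF3 and U2AF proteins, and the U4/U6.U5 tri-snRNP then joins and is rearranged into the active enzyme. SR proteins bind exons and mostly favour the use of nearby splice sites, while many hnRNP proteins bind introns or exons and mostly oppose it, so the balance between them shapes alternative splicing. Several SR and hnRNP genes are known to regulate their own mRNA through alternative exons that expose it to nonsense-mediated decay.

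Values are FPKM, a read density per length of transcript. ERCC spike-in RNA had been added according to cell number, and its rows summed to 6505 to 6948 FPKM in every library, nearly level across the groups. On that scale a lower value can come from fewer cells that carry a transcript or from less RNA per cell, and in bulk RNA these cannot be told apart. The total over all genes, left without the MIR1244 rows that alone held a large part of it, was 1084745 to 1631013 in DMSO and 212407 to 367961 in the combination, the lowest group. The combination libraries stood apart from each other, with replicate 2 highest for nearly every gene below, and among the DMSO libraries replicate 1 was lowest and replicate 3 highest for nearly every member. All comparisons with DMSO share the same 3 DMSO libraries. Since most genes fell with treatment, each change is given on the deposited scale and after ratio rescaling, which divides a library by the median ratio of its genes to their means over all libraries and so expresses a gene relative to the typical gene. A gene is said to have risen or fallen where the log2 change reached 1 in size with an adjusted p under 0.05. Changes are differences of log2(FPKM + 1) with their SE, from 3 libraries against 3, and adjusted p-values are from limma with Benjamini-Hochberg adjustment over all tested genes.

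The line showed the markers of its label. KIT, ANO1, ETV1, HAND1, FOXF1 and PRKCQ summed to 1383 to 2084 FPKM in DMSO, with all 6 above 1 FPKM. The defining markers of leukocytes (PTPRC), endothelium (PECAM1, CDH5, VWF) and glia (GFAP, SOX10) lay between 0.0878 and 0.298 FPKM, close to the floor of the table near 0.1. Of 5 epithelial markers, EPCAM reached 3.39 FPKM at most, CDH1 0.286 and KRT19 0.156, while KRT18 reached 653 and carried most of the sum, which was 416 to 663 in DMSO, 44.0 to 46.5 after 24 h of imatinib, 45.7 to 61.6 after 24 h of JQ1 and 16.5 to 29.4 with both. The part of that fall in the results below was not tested.

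The promoters of 6 members are shown first, 5 of genes called on the rescaled values and 1 of an abundant gene that was not: SRSF1, SRSF3, SRSF6, SRSF10 and SNRPA1 fell relative to the typical gene after 24 h of imatinib, and HNRNPC did not. Each sequence is the 250 bases before the RefSeq start site in GRCh38.p14, written 5′ to 3′ on the strand of the gene. Of the 88 members, 71 had an entry in the promoter table. Capitals mark the letters CACGTG (the E-box that MYC and MAX bind), CCGGAAG (core of ETS factor sites), CCAAT (the box of NF-Y), TTTCCCGC (an E2F site), the palindromic NRF1 site and TATAAA (the TATA box), searched on both strands, so that ATTGG is CCAAT read on the other strand.
SRSF1 (chr17:58007247-58007496, minus strand): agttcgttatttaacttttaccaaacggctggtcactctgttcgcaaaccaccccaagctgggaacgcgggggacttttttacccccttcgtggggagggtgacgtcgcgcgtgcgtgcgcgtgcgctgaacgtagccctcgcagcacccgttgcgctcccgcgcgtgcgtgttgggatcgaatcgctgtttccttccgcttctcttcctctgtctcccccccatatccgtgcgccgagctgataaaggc
SRSF3 (chr6:36594112-36594361, plus strand): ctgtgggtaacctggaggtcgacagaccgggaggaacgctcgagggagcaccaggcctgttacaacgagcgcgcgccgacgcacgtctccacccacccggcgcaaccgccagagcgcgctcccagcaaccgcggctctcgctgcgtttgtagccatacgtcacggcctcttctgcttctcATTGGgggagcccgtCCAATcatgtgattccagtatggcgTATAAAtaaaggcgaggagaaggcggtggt
SRSF6 (chr20:43457646-43457895, plus strand): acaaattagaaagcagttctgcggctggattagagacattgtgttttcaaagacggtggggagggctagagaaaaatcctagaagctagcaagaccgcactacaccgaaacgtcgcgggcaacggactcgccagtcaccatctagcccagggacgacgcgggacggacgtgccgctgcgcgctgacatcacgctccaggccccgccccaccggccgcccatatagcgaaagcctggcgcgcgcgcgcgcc
SRSF10 (chr1:23980328-23980577, minus strand): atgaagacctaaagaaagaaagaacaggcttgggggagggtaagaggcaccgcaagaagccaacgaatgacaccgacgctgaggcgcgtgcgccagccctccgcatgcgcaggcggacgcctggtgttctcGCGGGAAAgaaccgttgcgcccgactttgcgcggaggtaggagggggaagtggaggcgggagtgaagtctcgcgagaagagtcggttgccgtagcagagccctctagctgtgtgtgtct
SNRPA1 (chr15:101295249-101295498, minus strand): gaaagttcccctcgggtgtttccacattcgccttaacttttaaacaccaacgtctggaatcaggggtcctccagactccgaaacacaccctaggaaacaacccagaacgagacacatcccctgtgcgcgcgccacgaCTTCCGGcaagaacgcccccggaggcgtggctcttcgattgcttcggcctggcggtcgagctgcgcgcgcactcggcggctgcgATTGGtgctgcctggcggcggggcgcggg
HNRNPC (chr14:21269443-21269692, minus strand): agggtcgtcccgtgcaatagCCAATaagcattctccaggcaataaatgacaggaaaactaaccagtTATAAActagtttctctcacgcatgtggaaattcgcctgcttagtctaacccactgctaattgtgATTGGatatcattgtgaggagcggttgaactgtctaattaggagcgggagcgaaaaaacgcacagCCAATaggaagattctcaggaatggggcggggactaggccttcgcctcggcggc

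Among the 6 promoters shown, SRSF1 and SRSF6 held none of the 6 motifs in this window, SRSF3 held CCAAT on both strands next to a TATAAA, and SRSF10 held the E2F letters. Over the 11 SR genes with an entry, 2 held CCAAT, 2 CCGGAAG, 3 TATAAA, 1 TTTCCCGC, and 0 held CACGTG or the NRF1 site. Among all 71 members with an entry, CCAAT was in 47.9%, against 32% of the 35114 promoters in the table, and CCGGAAG was in 29.6% against 8.52%. CACGTG was in 8.45% of members and 6.35% of all promoters, TATAAA in 9.86% and 10.7%, TTTCCCGC in 2.82% and 1.39%, and the NRF1 site in 1.41% and 1.03%. The 2 kinds of share differ in unit: a member was counted if any of its promoters held the letters, while the table was counted by promoter. Some members had several promoters, up to 4, which raises the shares of members against those of the table. The promoters of the table were also not limited to expressed genes, while 84 of the 88 members passed the expression filter. Shares among expressed genes alone were not counted, so a difference cannot be read as particular to splicing genes. These shares describe letters in a window, not binding.

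At 6 h of imatinib, 22 of the 84 tested members fell, a share of 26.2% beside 20.0% of all tested genes, and after ratio rescaling SRSF7 alone fell (2.08% of all tested genes fell). Without DMSO replicate 1 the count on the deposited scale was 38, and without DMSO replicate 3 it was 12. At 6 h of JQ1, 66 members fell, 78.6% beside 49.8% of all tested genes. After rescaling 2 fell there, HNRNPD and the processed copy HNRNPKP3, beside 2.58% of all tested genes. The members' median log2 change was -0.84 with imatinib and -1.20 with JQ1 at 6 h, where all tested genes had -0.69 and -1.0.

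By 24 h nearly every member had fallen on the deposited scale: 83 of 84 with imatinib (72.1% of all tested genes fell), 83 with JQ1 (75.3%) and 84 with both (86.0%). PRPF40B, a U1-associated factor of low level, missed the call with imatinib at -0.65 ± 0.12, and the antisense row HNRNPU-AS1 missed it with JQ1. The members' medians were -2.18, -1.97 and -2.79, lower than the -1.503, -1.49 and -2.05 of all tested genes. After ratio rescaling the picture divided by family. Relative to the typical gene 20 members fell with imatinib, 23.8% beside 8.75% of all tested genes. With JQ1 5 fell, 5.95% beside 6.48%, and with both drugs 21 fell, 25% beside 10.2%. On that scale 0 members rose, although 8.80%, 5.26% and 9.19% of all tested genes did.

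**Figure D1:**
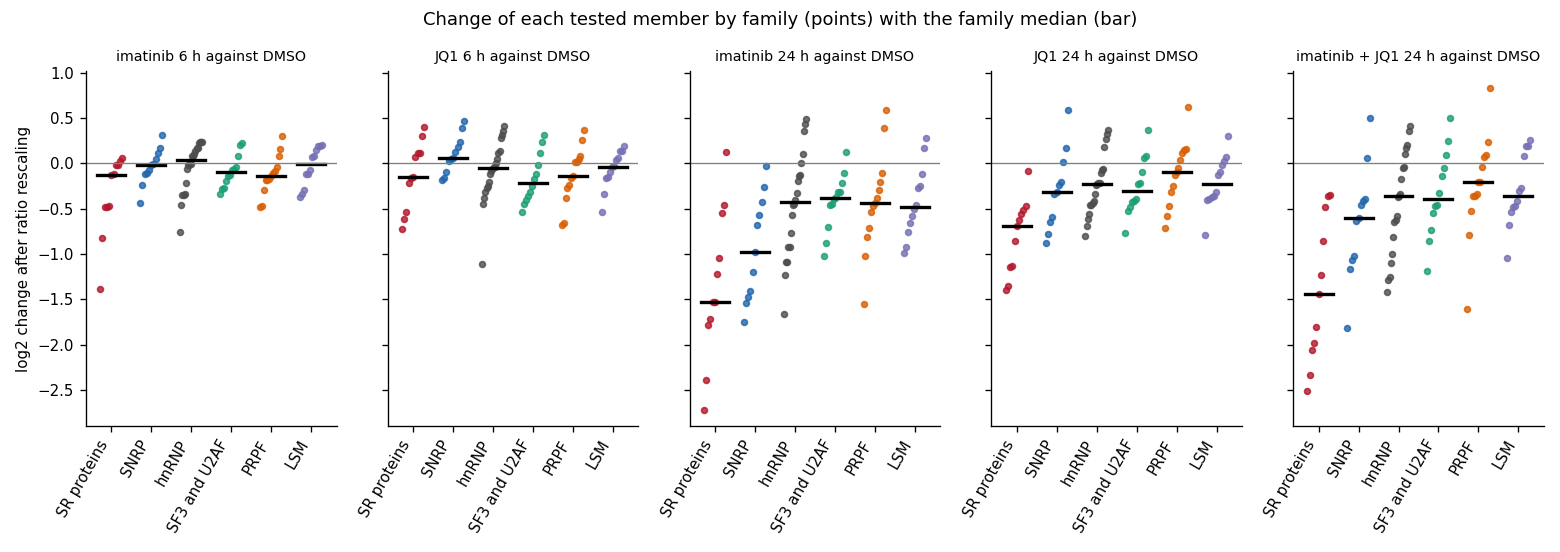
Log2 change after ratio rescaling (vertical axis) of each tested member, grouped by family along the horizontal axis, in the 5 comparisons with DMSO; points are genes and bars are family medians. The SR median reached -1.52 after 24 h of imatinib and -1.44 with both drugs, while the PRPF and LSM medians stayed between -0.48 and 0.00 in the 5 panels. After 24 h of imatinib the medians of hnRNP and of SF3 and U2AF were likewise far nearer 0 than the SR median.

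For all members together, the share of total FPKM, taken without the MIR1244 rows, gives the same order of groups in another form. All 88 members together held 1.82 ± 0.0195% (SD, n = 3) of it in DMSO, and at 6 h 1.75% with imatinib and 1.56% with JQ1. At 24 h the shares were 1.36% with imatinib, 1.44% with JQ1 and 1.25 ± 0.0302% with both. In each of the 5 treated groups the 3 libraries lay below the 3 DMSO libraries (exact two-sided permutation test, p = 0.1 each, the smallest that 3 against 3 can give). The SR genes went from 0.196% to 0.0764%, 0.107% and 0.0688% in these 24 h groups. The SNRP genes held 0.379% in DMSO, 0.249% with imatinib and 0.363% with JQ1 at 24 h, and the hnRNP genes 0.714%, 0.613% and 0.551%. The summed hnRNP share was thus lower with JQ1 than with imatinib, the reverse of the SR and SNRP shares. In that sum HNRNPA1, the most abundant hnRNP mRNA, weighs most, and the order does not hold gene by gene. At 24 h HNRNPA1, its copy HNRNPA1L2 and HNRNPH2 were lower with JQ1 than with imatinib. HNRNPA2B1, HNRNPAB, HNRNPC, HNRNPH1 and HNRNPU, among others, were higher with JQ1.

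The SR genes, whose proteins carry arginine-serine repeats, had the lowest median change of the 6 families after 24 h of each drug and of both. After 24 h of imatinib all 11 tested SR genes fell, with a median log2 change of -3.23 where all tested genes had -1.503. Relative to the typical gene 8 of the 11 still fell, with a median of -1.52, and after rescaling to equal totals without MIR1244, the other scaling used, 7 did (beside 7.83% of all tested genes). With JQ1 for 24 h the rescaled count was 4 (SRSF1, SRSF2, SRSF6 and SRSF7), and with both drugs it was 7. After ratio rescaling 8.75% of all tested genes fell with imatinib, 6.48% with JQ1 and 10.2% with both. Values of the 3 libraries of a group are given in the order of their replicate numbers, and for JQ1 24 h the first is a library whose number is 1 in the table and 0 in the sample titles, called unnumbered here.

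SRSF2 (SC35), a splicing activator that also marks nuclear speckles, had the lowest change of all members at 24 h. SRSF2 stood at 424, 530.4 and 632 FPKM in DMSO, at 212, 208 and 241 after 6 h of imatinib and at 286, 267 and 319.7 after 6 h of JQ1. SRSF2 after 24 h was at 21.3, 25.5 and 22.9 FPKM with imatinib, 54.4, 59.7 and 67.5 with JQ1 and 12.7, 22.8 and 15.6 with both. At 6 h the JQ1 libraries all lay above the imatinib libraries, and at 24 h the 3 imatinib libraries lay below the 3 JQ1 libraries and overlapped the combination. Its log2 change after 24 h of imatinib was -4.44 ± 0.19 (adjusted p = 7.9e-15, limma), a 22.8-fold lower mean, and only 0.360% of tested genes had a lower change. Its rescaled changes at 24 h were -2.72 with imatinib, -1.40 for JQ1 and -2.51 for the combination. After 6 h of JQ1 it missed the call at -0.84 ± 0.19, and rescaled its value was 0.30. MFSD11 overlaps SRSF2 on the other strand, and the libraries are stranded, but no source used here says whether the counting used strand.

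SRSF7 (9G8), an SR protein with a zinc knuckle that also links splicing to mRNA export, had the lowest change of all members at 6 h of imatinib. In DMSO SRSF7 was at 233, 298 and 333 FPKM, against 61.5, 60.3 and 67.2 with imatinib for 6 h and 82.6, 76.8 and 91.7 with JQ1 for 6 h. By 24 h SRSF7 held 14.7, 16.5 and 15.7 FPKM with imatinib, 36.4, 37.9 and 44.7 with JQ1 and 7.84, 12.9 and 10.1 with both drugs. No pair of groups overlapped for SRSF7, and the combination held the lowest libraries. At 6 h of imatinib its log2 change was -2.16 ± 0.17 (adjusted p = 1.3e-09, limma), and rescaled it was -1.38 ± 0.04. The values at 24 h were -4.10 ± 0.17 with imatinib, -2.82 ± 0.17 with JQ1 and -4.69 ± 0.17 with both.

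SRSF1 (ASF/SF2), the founding SR protein, fell at 6 h with either drug. SRSF1 values were 182, 222 and 275 FPKM in DMSO, 69.6, 70.01 and 80.8 at 6 h of imatinib and 69.6, 64.8 and 72.8 at 6 h of JQ1. SRSF1 at 24 h read 18.3, 21.1 and 20.3 FPKM with imatinib, 23.01, 26.3 and 29.9 with JQ1 and 7.20, 13.2 and 9.29 in the combination. The 6 h groups overlapped, and at 24 h JQ1, imatinib and the combination followed in falling order without overlap. Rescaled changes were -0.82 and -0.54 at 6 h, short of a call, and -1.71, -1.36 and -2.05 for imatinib, JQ1 and both at 24 h.

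SRSF6 acts on many alternative exons. SRSF6 stood at 127, 155 and 179.5 FPKM in DMSO, at 60.8, 60.6 and 68.2 after 6 h of imatinib and at 73.1, 65.1 and 78.9 after 6 h of JQ1. By 24 h SRSF6 held 11.5, 14.1 and 12.7 FPKM with imatinib, 18.9, 20.8 and 22.8 with JQ1 and 5.36, 8.68 and 6.71 with both drugs. Its groups overlapped only at 6 h, where the JQ1 mean was the higher, and at 24 h JQ1, imatinib and the combination followed in falling order. SRSF6 changed by -3.48 ± 0.17 with imatinib, -2.82 ± 0.17 with JQ1 and -4.30 ± 0.17 with both at 24 h. SRSF3 (SRp20), the smallest SR protein, had 6 separate groups, with imatinib above JQ1 at 6 h. In DMSO SRSF3 was at 342, 435 and 503 FPKM, against 238, 234 and 254 with imatinib for 6 h and 174, 149 and 189 with JQ1 for 6 h. SRSF3 after 24 h was at 41.3, 44.9 and 43.1 FPKM with imatinib, 76.3, 82.7 and 92.4 with JQ1 and 21.4, 36.9 and 29.01 with both. Its imatinib libraries then lay below the JQ1 libraries at 24 h, the reverse of 6 h. SRSF3 after 24 h of imatinib changed by -3.26 ± 0.18, or -1.53 rescaled.

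SRSF5, a further SR protein with a wide range of target exons, was among the least lowered members at 6 h of JQ1. SRSF5 values were 173, 223 and 249 FPKM in DMSO, 110.2, 106 and 129 at 6 h of imatinib and 126, 116 and 140.01 at 6 h of JQ1. SRSF5 at 24 h read 25.7, 28.5 and 26.3 FPKM with imatinib, 39.6, 48.6 and 53.8 with JQ1 and 15.6, 30.4 and 20.8 in the combination. Its 6 h groups overlapped each other, as did imatinib and the combination at 24 h. SRSF5 missed the call after 6 h of JQ1 (-0.74 ± 0.20) and fell by 24 h of imatinib (-2.94 ± 0.20, rescaled -1.22). SRSF10, known to act as a splicing repressor when dephosphorylated, and SRSF4 (SRp75) changed by -3.23 and -2.74 after 24 h of imatinib, or -1.52 and -1.04 rescaled. SRSF10 was at 147 ± 31.8 FPKM in DMSO, 14.6 ± 1.08 after 24 h of imatinib and 7.50 ± 1.92 with both (SD, n = 3). For SRSF4 the call after rescaling ended at equal totals, where its value was -0.98.

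Among the tested SR genes, SRSF11, SRSF9 and SRSF8 stayed nearest to the typical gene after 24 h of imatinib. SRSF11 stood at 85.9, 102 and 126 FPKM in DMSO, at 54.03, 52.04 and 59.4 after 6 h of imatinib and at 43.8, 37.3 and 44.9 after 6 h of JQ1. SRSF11 after 24 h was at 20.7, 23.97 and 22.2 FPKM with imatinib, 19.3, 22.6 and 24.4 with JQ1 and 10.3, 17.5 and 13.9 with both. The imatinib and JQ1 libraries of SRSF11 overlapped at 24 h and all treated libraries lay below DMSO. Its rescaled change after 24 h of imatinib was -0.46, and that of SRSF9 was -0.55, both without a call. SRSF8, which arose as a copy of SRSF2 and has its own locus, went a different way from SRSF2. In DMSO SRSF8 was at 18.1, 22.01 and 28.2 FPKM, against 13.7, 12.2 and 14.1 with imatinib for 6 h and 5.61, 5.50 and 5.90 with JQ1 for 6 h. By 24 h SRSF8 held 6.96, 7.51 and 7.72 FPKM with imatinib, 4.28, 4.06 and 5.01 with JQ1 and 2.43, 4.43 and 2.87 with both drugs. Its JQ1 libraries lay below its imatinib libraries at both times, and JQ1 overlapped the combination at 24 h. SRSF8 fell at 6 h of JQ1 (-1.81 ± 0.17) and by 24 h of imatinib (-1.48 ± 0.17), where its rescaled value was above 0, at 0.13. SRSF12 was below the filter, at 0.217 to 1.01 FPKM over the 18 libraries.

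**Figure D2:**
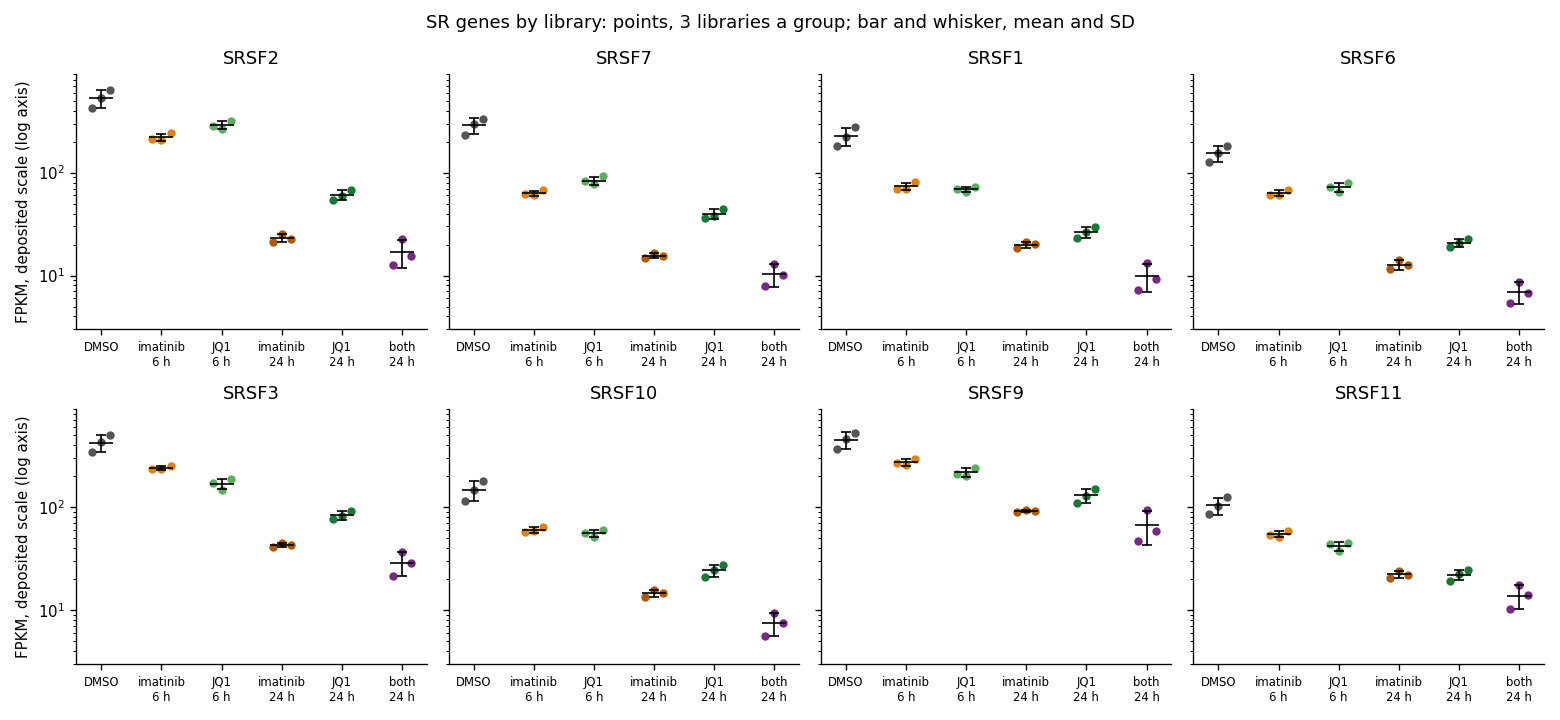
FPKM on the deposited scale (log axis) of 8 SR genes in the 6 groups; points are the 3 libraries of a group, and bars and whiskers the mean and SD. SRSF2 and SRSF7 drop to 21.3 to 25.5 and 14.7 to 16.5 FPKM after 24 h of imatinib, whereas SRSF11 stays at 20.7 to 24.0.

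Relative to each other the SR mRNAs changed their proportions. FPKM is per length, so the levels of different genes can be set side by side. SRSF2 stood at 4.94, 5.18 and 5.03 times the level of SRSF11 in the 3 DMSO libraries, at 1.03, 1.06 and 1.03 times after 24 h of imatinib and at 2.81, 2.64 and 2.76 times after 24 h of JQ1. The pair was chosen after its values were seen, so this ratio is a description with no test. All 12 SR genes have at least 1 transcript annotated as a target of nonsense-mediated decay in GENCODE release 29, where 35.6% of 19969 coding genes have 1. Among all coding members, 44 have such a transcript and 13 of these fell relative to the typical gene after 24 h of imatinib, and of 38 without, 7 fell, beside 8.75% of all tested genes. Of the 13, 8 are SR genes, and outside the SR family 5 of 32 with such a transcript and 7 of 38 without fell. The deposited values are per gene, so they do not show which transcript changed.

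The SNRP genes encode the Sm proteins, which form a ring of SNRPB, SNRPD1, SNRPD2, SNRPD3, SNRPE, SNRPF and SNRPG on each spliceosomal snRNA except U6, and the specific proteins of U1 (SNRPA and SNRPC) and U2 (SNRPA1 and SNRPB2). After 24 h of imatinib all 11 tested genes fell, with a median of -2.69, and 5 fell relative to the typical gene (median -0.97). With JQ1 for 24 h the rescaled count was 0 of 11, with a median of -0.31, and with both drugs it was 4. On that scale 8.75% of all tested genes fell with imatinib, 6.48% with JQ1 and 10.2% with both. Among so few genes the JQ1 count is not far from that background.

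SNRPA1, which binds the U2 snRNA together with SNRPB2, had the lowest change of the family. SNRPA1 stood at 230.3, 300.02 and 359 FPKM in DMSO, at 156, 148 and 172 after 6 h of imatinib and at 117, 105 and 131 after 6 h of JQ1. SNRPA1 after 24 h was at 23.4, 26.3 and 27 FPKM with imatinib, 44.4, 47.02 and 54.2 with JQ1 and 11.3, 19.7 and 15.1 with both. All 6 groups of SNRPA1 were separate, with imatinib below JQ1 at 24 h and above it at 6 h. It changed by -3.46 ± 0.19 after 24 h of imatinib (adjusted p = 3.0e-13, limma), or -1.74 rescaled, and rescaled by -0.87 with JQ1, without a call. Its partner SNRPB2 changed by -0.26 rescaled after 24 h of imatinib, and the level of SNRPA1 over that of SNRPB2 went from a mean of 1.78 in DMSO to 0.627 with imatinib, 0.956 with JQ1 and 0.475 with both, a pair also chosen after its values were seen.

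In the Sm ring SNRPB fell most and SNRPD2 least after 24 h of imatinib. In DMSO SNRPB was at 421, 551 and 635 FPKM, against 289, 317 and 313 with imatinib for 6 h and 247, 219 and 276 with JQ1 for 6 h. By 24 h SNRPB held 53.5, 52.9 and 55.8 FPKM with imatinib, 95.9, 106 and 121 with JQ1 and 35.8, 63.1 and 44.3 with both drugs. SNRPB with imatinib lay below JQ1 at 24 h and overlapped the combination. SNRPD1 values were 127, 174 and 195 FPKM in DMSO, 67.7, 66.6 and 75.6 at 6 h of imatinib and 66.8, 55.9 and 70.9 at 6 h of JQ1. SNRPD1 at 24 h read 16.1, 17.7 and 17.3 FPKM with imatinib, 28.1, 30.9 and 36.2 with JQ1 and 11, 18.9 and 15.05 in the combination. SNRPD1 had the same order, with overlap of the 6 h groups. Changes after 24 h of imatinib were -3.27 ± 0.19 for SNRPB and -3.19 ± 0.19 for SNRPD1, or -1.53 and -1.48 rescaled.

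SNRPD2 and SNRPG were the most abundant Sm mRNAs and changed unequally. SNRPD2 stood at 1190.3, 1693 and 1826 FPKM in DMSO, at 985, 1038 and 1009 after 6 h of imatinib and at 1019, 809.7 and 1070.3 after 6 h of JQ1. SNRPD2 after 24 h was at 442, 472 and 441 FPKM with imatinib, 641, 711 and 790.1 with JQ1 and 319, 516 and 399 with both. The 24 h JQ1 libraries of SNRPD2 lay above those of imatinib. In DMSO SNRPG was at 736, 1097 and 1155 FPKM, against 584, 639.8 and 625 with imatinib for 6 h and 613, 484 and 651 with JQ1 for 6 h. By 24 h SNRPG held 122, 134 and 124 FPKM with imatinib, 321, 326 and 369 with JQ1 and 105, 166 and 142 with both drugs. For SNRPG the 3 imatinib libraries fell within the range of the combination, far below JQ1. After 24 h of imatinib SNRPD2 changed by -1.77 ± 0.19 (rescaled -0.03) and SNRPG by -2.94 ± 0.19 (rescaled -1.20). With JQ1 for 24 h they changed by -1.12 ± 0.19 and -1.53 ± 0.19, and rescaled both were above 0, at 0.59 and 0.17. The SNRPD2 call with JQ1 ends without DMSO replicate 3, where its change was -0.996.

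Within a library each Sm gene can be set against SNRPD2, which removes the scale of the library. SNRPB was at 0.342 of SNRPD2 in DMSO (mean of 3 libraries), 0.120 after 24 h of imatinib, 0.151 with JQ1 and 0.115 with both. SNRPF moved from 0.269 to 0.103, 0.104 and 0.0839. SNRPG was at 0.633 in DMSO and, at 6 h, at 0.609 with imatinib, where a library overlapped DMSO, and 0.603 with JQ1, where all 3 lay below. By 24 h it was at 0.281 with imatinib and 0.475 with JQ1. These ratios show unequal change of the mRNAs of the ring, and say nothing of the proteins. They were computed after the changes were seen and carry no test.

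**Figure D3:**
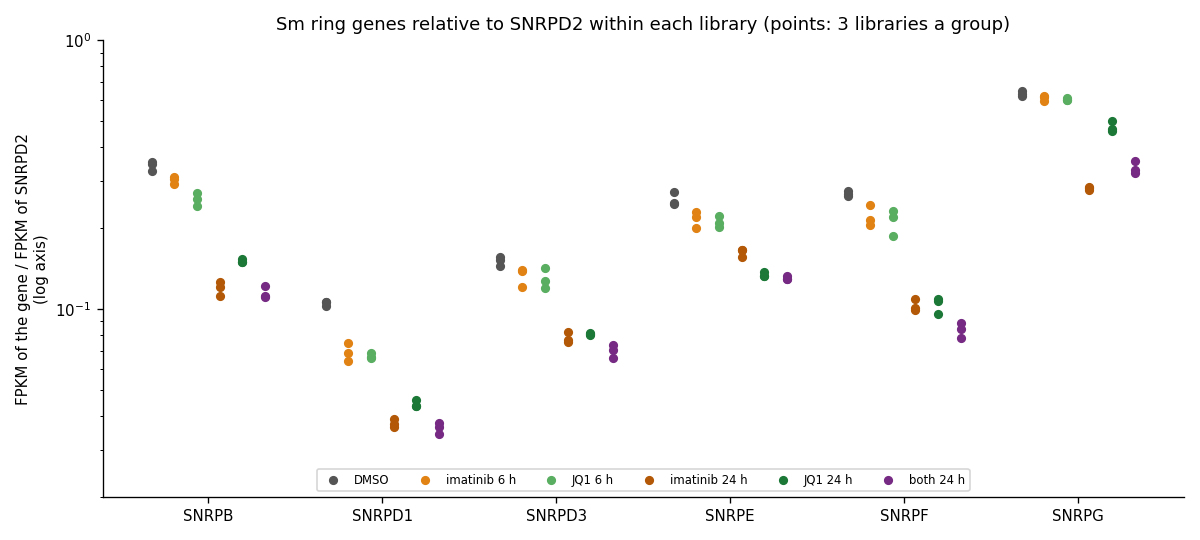
Level of 6 Sm ring genes divided by that of SNRPD2 in the same library (log axis), with 3 points for the libraries of each of the 6 groups. SNRPB drops from a mean of 0.342 in DMSO to 0.120 with imatinib and 0.151 with JQ1 at 24 h, while SNRPG separates the drugs, at 0.281 and 0.475.

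SNRPA, a protein of the U1 particle, was among the members nearest to DMSO at 6 h of imatinib. SNRPA values were 107, 141 and 170.2 FPKM in DMSO, 98.3, 96.2 and 105 at 6 h of imatinib and 57.3, 52.8 and 63.2 at 6 h of JQ1. SNRPA at 24 h read 28.1, 26.4 and 27.7 FPKM with imatinib, 30.8, 35.8 and 43.1 with JQ1 and 11.98, 24.3 and 14.5 in the combination. Its 6 groups were separate, and the 6 h imatinib libraries lay just below DMSO, with a change of -0.45 ± 0.21. SNRPN, an imprinted neural relative of SNRPB, and the pseudogene row SNRPD2P2 were near the floor, and neither was tested. SNRPN stood at 0.106, 0.109 and 0.110 FPKM in DMSO, at 0.103, 0.0939 and 0.106 after 6 h of imatinib and at 0.112, 0.0977 and 0.139 after 6 h of JQ1. SNRPN after 24 h was at 0.0980, 0.121 and 0.0939 FPKM with imatinib, 0.102, 0.0983 and 0.156 with JQ1 and 0.0916, 0.0949 and 0.0891 with both. No SNRPN library exceeded 0.156 FPKM.

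The SF3A and SF3B proteins belong to U2, and U2AF1 and U2AF2 read the end of the intron. All 12 genes fell after 24 h of imatinib, with a median of -2.10. U2AF1 alone fell relative to the typical gene (family median -0.38), a count near the 8.75% of all tested genes. SF3B1, which clamps the branch point and is recurrently mutated in some cancers, kept the level of the typical gene at 24 h. In DMSO SF3B1 was at 145, 173 and 222 FPKM, against 97.4, 93.8 and 105 with imatinib for 6 h and 58.5, 48.3 and 58.01 with JQ1 for 6 h. By 24 h SF3B1 held 42.8, 47.9 and 45.8 FPKM with imatinib, 45.3, 51.99 and 54.9 with JQ1 and 22.1, 39.7 and 29.6 with both drugs. Its 6 h JQ1 libraries already overlapped the 24 h JQ1 libraries, and imatinib and JQ1 overlapped at 24 h. The change of SF3B1 after 24 h of imatinib was -1.94 ± 0.19, or -0.22 rescaled.

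SF3B4 and SF3A3 are further subunits of the U2 particle. SF3B4 stood at 78.8, 101 and 134 FPKM in DMSO, at 45.96, 45.99 and 55.2 after 6 h of imatinib and at 39.1, 38.5 and 44.6 after 6 h of JQ1. SF3B4 at 24 h read 21.8, 21.4 and 23 FPKM with imatinib, 19.6, 24.3 and 26.1 with JQ1 and 9.95, 20.2 and 12.4 in the combination. For SF3B4 the JQ1 group overlapped both other groups at 24 h. SF3A3 values were 225, 275 and 320.5 FPKM in DMSO, 124, 118 and 133 at 6 h of imatinib and 114, 103 and 120.3 at 6 h of JQ1. SF3A3 after 24 h was at 46.9, 51.4 and 49.9 FPKM with imatinib, 53.3, 59.2 and 65.3 with JQ1 and 25.5, 48.6 and 31.9 with both. SF3A3 was lower than SF3B4 relative to the typical gene, with rescaled changes of -0.71 and -0.46 after 24 h of imatinib. SF3B14, now named SF3B6, contacts the branch point adenosine and kept its level best in this family. In DMSO SF3B14 was at 410.2, 557 and 652 FPKM, against 357, 335 and 374 with imatinib for 6 h and 313, 259 and 324 with JQ1 for 6 h. By 24 h SF3B14 held 161, 184 and 176 FPKM with imatinib, 195, 204 and 228 with JQ1 and 111, 179 and 136 with both drugs. Every treated SF3B14 library was below DMSO, yet its rescaled changes were above 0 with imatinib (0.13, deposited -1.61) and with both drugs (0.503, deposited -1.92).

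U2AF1 and U2AF2, which bind the AG and the pyrimidine tract at the 3′ end of the intron as a dimer, both fell. U2AF1 values were 334, 462 and 544 FPKM in DMSO, 205, 199 and 229.6 at 6 h of imatinib and 145, 135 and 168 at 6 h of JQ1. U2AF1 at 24 h read 61.99, 65.3 and 65.7 FPKM with imatinib, 67.8, 79.2 and 90.1 with JQ1 and 26.1, 49.9 and 34.1 in the combination. U2AF2 stood at 139.9, 174 and 222 FPKM in DMSO, at 85.3, 84.1 and 97.9 after 6 h of imatinib and at 65.6, 62.2 and 71.1 after 6 h of JQ1. All 6 groups of U2AF1 were separate, and those of U2AF2 too. U2AF2 after 24 h was at 28.2, 28.3 and 28 FPKM with imatinib, 34.3, 39.5 and 47.1 with JQ1 and 13.4, 25.4 and 16.2 with both. At 24 h of imatinib U2AF1 changed by -2.75 ± 0.21 (rescaled -1.02) and U2AF2 by -2.60 ± 0.20 (rescaled -0.88), so that 1 passed the size of a call and the other did not. At equal totals U2AF1 was at -0.95 and its call ended. Their ratio had means of 2.5 in DMSO, 2.28 with imatinib and 1.96 with JQ1 at 24 h.

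The PRPF genes cover the tri-snRNP and the factors that activate it. With 24 h of imatinib 12 of 13 fell, with a median of -2.06. PRPF3 and PRPF4, partners in the U4/U6 particle, fell relative to the typical gene, beside 8.75% of all tested genes. In DMSO PRPF3 was at 23.6, 29.9 and 37.3 FPKM, against 14.9, 13.5 and 16.9 with imatinib for 6 h and 8.28, 7.66 and 7.98 with JQ1 for 6 h. By 24 h PRPF3 held 2.15, 2.67 and 2.90 FPKM with imatinib, 4.41, 5.21 and 6.34 with JQ1 and 1.13, 1.95 and 1.53 with both drugs. No groups of PRPF3 overlapped, and every treated library lay below DMSO. The rescaled change of PRPF3 was -1.55 with imatinib and -1.61 with both at 24 h, on deposited changes of -3.11 ± 0.17 and -3.61 ± 0.17. PRPF4 was at -1.02 rescaled with imatinib and at -0.95 with equal totals, where its call ended. PRPF3 also fell at 6 h of JQ1, with a change of -1.78 on the deposited scale.

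PRPF6, which bridges U5 and U4/U6 within the tri-snRNP, lay at the other end. PRPF6 stood at 141, 173 and 227 FPKM in DMSO, at 128, 118 and 135 after 6 h of imatinib and at 65.6, 65.1 and 71.9 after 6 h of JQ1. PRPF6 after 24 h was at 69.7, 71.6 and 67.9 FPKM with imatinib, 71.7, 86.9 and 93.8 with JQ1 and 44.1, 86.6 and 52.9 with both. Its 6 h JQ1 libraries overlapped all 24 h groups. It changed by -1.33 ± 0.21 with imatinib, -1.07 ± 0.21 with JQ1 and -1.57 ± 0.21 with both at 24 h, and rescaled by 0.39, 0.62 and 0.84, all above 0. The call with JQ1 ends without DMSO replicate 3 (-0.89) and without the unnumbered JQ1 24 h library (-0.96).

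PRPF8, the scaffold at the heart of the spliceosome, and PRPF19, a ubiquitin ligase of the activating complex, stayed without a call after rescaling. PRPF8 values were 248, 266 and 357 FPKM in DMSO, 153, 149 and 164 at 6 h of imatinib and 106, 104 and 112 at 6 h of JQ1. PRPF8 at 24 h read 68.4, 74.03 and 66.5 FPKM with imatinib, 71.9, 81.95 and 93.5 with JQ1 and 42.9, 76.97 and 52.6 in the combination. The 3 groups of PRPF8 at 24 h overlapped each other. PRPF19 stood at 310.4, 383 and 472 FPKM in DMSO, at 193, 186 and 212 after 6 h of imatinib and at 173, 162 and 191 after 6 h of JQ1. By 24 h PRPF19 held 64.4, 64.8 and 65.6 FPKM with imatinib, 66.4, 79.5 and 90.3 with JQ1 and 30.1, 59.4 and 38.1 with both drugs. PRPF19 with both drugs lay below either drug alone. Their rescaled changes after 24 h of imatinib were -0.30 and -0.81. PRPF4B is a kinase that phosphorylates splicing factors, and PRPF39 is related to a yeast U1 protein. In DMSO PRPF4B was at 26.4, 31.8 and 38.6 FPKM, against 17.4, 16.6 and 20.5 with imatinib for 6 h and 10.7, 10.3 and 11.3 with JQ1 for 6 h. PRPF4B after 24 h was at 6.33, 7.33 and 6.99 FPKM with imatinib, 7.94, 8.92 and 9.90 with JQ1 and 3.52, 5.85 and 4.37 with both. PRPF4B separated all 6 groups. PRPF39 values were 31.98, 36.6 and 48.6 FPKM in DMSO, 18.2, 18.1 and 23.02 at 6 h of imatinib and 23.4, 20.9 and 23.9 at 6 h of JQ1. PRPF39 at 24 h read 7.16, 8.17 and 7.79 FPKM with imatinib, 11.1, 12.3 and 13.01 with JQ1 and 4.72, 7.40 and 6.45 in the combination. PRPF39 overlapped between the drugs at 6 h, and at 24 h its imatinib libraries lay below JQ1.

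LSM2 to LSM8 form a ring on U6 snRNA, LSM10 and LSM11 belong to the U7 particle of histone mRNA processing, and LSM14A is a translational repressor of P-bodies. All 12 LSM genes fell after 24 h of each drug alone and with both. Relative to the typical gene 0 fell after either drug alone, and with both drugs LSM10 fell (-1.04 ± 0.04). Of all tested genes 8.75% fell there with imatinib, 6.48% with JQ1 and 10.2% with both. LSM2 stood at 112, 168 and 187 FPKM in DMSO, at 76.6, 81.1 and 87.8 after 6 h of imatinib and at 57.3, 47.8 and 58.3 after 6 h of JQ1. LSM2 after 24 h was at 26.7, 30.3 and 28.8 FPKM with imatinib, 35.01, 34.5 and 42.8 with JQ1 and 14.1, 23.4 and 16.1 with both. LSM2 kept its 6 groups apart, in the order DMSO, imatinib 6 h, JQ1 6 h, JQ1 24 h, imatinib 24 h, both. In DMSO LSM7 was at 369, 473 and 544 FPKM, against 286, 301 and 299.5 with imatinib for 6 h and 233, 202 and 249 with JQ1 for 6 h. By 24 h LSM7 held 102, 101 and 95.4 FPKM with imatinib, 94.04, 102 and 123 with JQ1 and 48.03, 76.8 and 52.8 with both drugs. For LSM7 imatinib and JQ1 overlapped at 24 h. LSM14A values were 70.7, 87.1 and 107 FPKM in DMSO, 56.5, 54.2 and 65.4 at 6 h of imatinib and 36.2, 32.8 and 36.8 at 6 h of JQ1. LSM14A at 24 h read 27.5, 31.5 and 29.2 FPKM with imatinib, 25.2, 27.7 and 31.3 with JQ1 and 14.1, 26.5 and 19.1 in the combination. LSM14A was the nearest of these 3 to the typical gene after 24 h of imatinib, at 0.17 rescaled, beside -0.66 for LSM2 and -0.46 for LSM7. LSM4 came closest to a rescaled call there, at -0.99.

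The hnRNP genes, with 20 tested, held the largest share of FPKM among the families and were divided. All 20 fell after 24 h of imatinib, with a median of -2.16. Relative to the typical gene 4 fell with imatinib (HNRNPAB -1.66, HNRNPR -1.24, HNRNPA2B1 -1.09 and HNRNPA3 -1.08), 0 with JQ1 and 4 with both. Of all tested genes 8.75%, 6.48% and 10.2% fell in these comparisons. Among so few genes the JQ1 count is not far from that background. HNRNPA1, a repressor that competes with SR proteins at many exons, was the highest hnRNP mRNA. HNRNPA1 stood at 1288, 1672 and 2024 FPKM in DMSO, at 1119, 1037 and 1206 after 6 h of imatinib and at 694, 624 and 779 after 6 h of JQ1. HNRNPA1 after 24 h was at 663, 713 and 684 FPKM with imatinib, 386, 435 and 476 with JQ1 and 204, 374 and 252 with both. The 24 h JQ1 libraries lay below the imatinib libraries, which overlapped the 6 h JQ1 group. HNRNPA1 changed by -1.25 ± 0.20 with imatinib and -1.92 ± 0.20 with JQ1 at 24 h, or 0.49 and -0.22 rescaled, and its rescaled value with both was -0.17.

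HNRNPA2B1, its close relative in sequence and binding, had its drugs in the other order at 24 h. In DMSO HNRNPA2B1 was at 827, 1029 and 1272 FPKM, against 664, 595 and 714 with imatinib for 6 h and 430.4, 429 and 494 with JQ1 for 6 h. By 24 h HNRNPA2B1 held 138, 153 and 141 FPKM with imatinib, 202, 235 and 249 with JQ1 and 59.03, 113 and 75.1 with both drugs. All 6 groups of HNRNPA2B1 were separate, with imatinib below JQ1 at 24 h. The level of HNRNPA2B1 over that of HNRNPA1 was 0.642, 0.615 and 0.628 in DMSO, 0.209, 0.214 and 0.207 with imatinib at 24 h, 0.522, 0.540 and 0.524 with JQ1 at 24 h and 0.289, 0.301 and 0.298 with both, for a pair chosen after its values were seen. Rescaled, HNRNPA2B1 changed by -1.09 ± 0.05 with imatinib and -1.25 ± 0.05 with both. CBX3 and NFE2L3 overlap HNRNPA2B1 on the other strand.

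HNRNPAB, which binds AU-rich RNA, separated the drugs at 6 h. HNRNPAB values were 604, 747 and 913 FPKM in DMSO, 251, 238 and 279 at 6 h of imatinib and 426, 422 and 491 at 6 h of JQ1. HNRNPAB at 24 h read 69.2, 74.3 and 67.1 FPKM with imatinib, 122, 143 and 159 with JQ1 and 47.02, 94.4 and 58.5 in the combination. At 6 h its JQ1 libraries lay above its imatinib libraries, and at 24 h the imatinib libraries lay below JQ1 and within the range of the combination. After 6 h of imatinib it fell (-1.54 ± 0.21), and after 6 h of JQ1 it missed the call (-0.74 ± 0.21, rescaled 0.41). HNRNPD (AUF1), another AU-rich binding protein and a factor in mRNA decay, had the opposite order at 6 h. HNRNPD stood at 368, 456 and 568 FPKM in DMSO, at 211, 187 and 237 after 6 h of imatinib and at 87.1, 90.7 and 109 after 6 h of JQ1. HNRNPD after 24 h was at 70.96, 73.3 and 71.8 FPKM with imatinib, 69.2, 82.1 and 89.03 with JQ1 and 25.6, 50.2 and 31.6 with both. Its 6 h JQ1 libraries lay far below its 6 h imatinib libraries and already overlapped the 24 h JQ1 group. HNRNPD changed by -2.25 ± 0.21 at 6 h of JQ1 (adjusted p = 3.1e-09, limma), a 4.86-fold lower mean, or -1.11 ± 0.06 rescaled.

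HNRNPC, HNRNPK and HNRNPU are abundant hnRNP mRNAs that passed no call after rescaling at 24 h of imatinib. HNRNPC packages pre-mRNA at uridine tracts, HNRNPK binds cytosine-rich RNA and DNA, and HNRNPU attaches to chromatin. In DMSO HNRNPC was at 544, 689 and 806 FPKM, against 434, 426 and 457 with imatinib for 6 h and 380.1, 340.01 and 407 with JQ1 for 6 h. By 24 h HNRNPC held 176, 192 and 177 FPKM with imatinib, 207, 236 and 257 with JQ1 and 115, 216 and 161 with both drugs. The combination of HNRNPC overlapped both single drugs at 24 h. HNRNPK values were 679.97, 849 and 1036 FPKM in DMSO, 486, 456 and 521 at 6 h of imatinib and 419, 376 and 443 at 6 h of JQ1. HNRNPK at 24 h read 218, 244 and 230.02 FPKM with imatinib, 219, 252 and 268 with JQ1 and 110.3, 214 and 145 in the combination. HNRNPK after 24 h overlapped between imatinib and JQ1 and was lower with both. HNRNPU stood at 312, 372 and 475 FPKM in DMSO, at 191, 173 and 213 after 6 h of imatinib and at 184, 181 and 201 after 6 h of JQ1. HNRNPU after 24 h was at 80.5, 86.5 and 82.1 FPKM with imatinib, 97.7, 111 and 118 with JQ1 and 50.6, 98.6 and 62.9 with both. HNRNPU overlapped between the drugs at 6 h, and its combination overlapped each of them at 24 h. Rescaled changes after 24 h of imatinib were -0.14, -0.13 and -0.45 for these 3 genes.

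**Figure D4:**
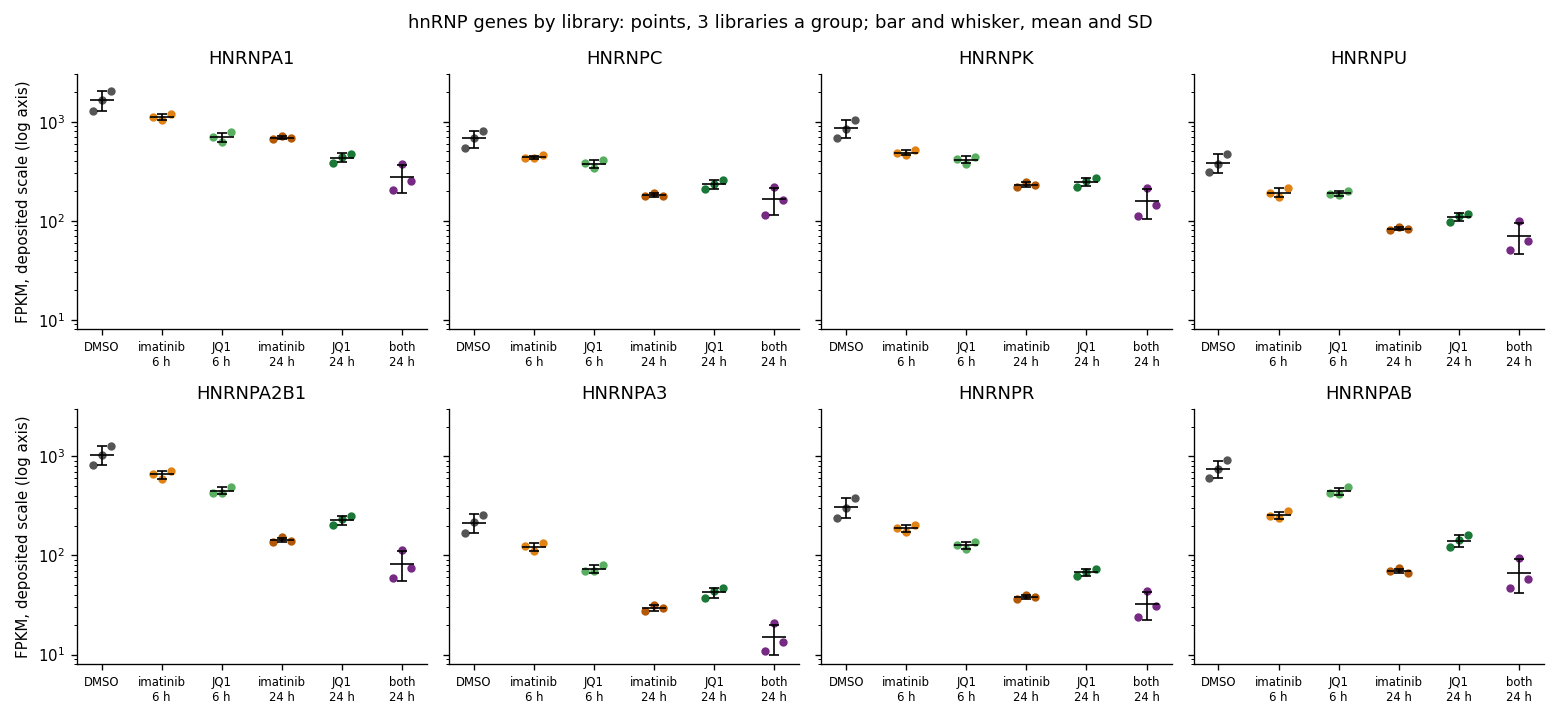
FPKM on the deposited scale (log axis) of 8 hnRNP genes in the 6 groups; points are the 3 libraries, and bars and whiskers the mean and SD. In the upper row HNRNPA1 after 24 h of imatinib stays at 663 to 713 FPKM, above JQ1, while in the lower row HNRNPA2B1 drops to 138 to 153, below JQ1.

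HNRNPH1 and HNRNPH2 bind runs of guanosine. In DMSO HNRNPH1 was at 392, 488 and 599 FPKM, against 205, 189 and 223 with imatinib for 6 h and 214, 194 and 231 with JQ1 for 6 h. HNRNPH1 at 24 h read 72.5, 81.1 and 75.9 FPKM with imatinib, 98.2, 113 and 119.5 with JQ1 and 34.4, 61.6 and 42.1 in the combination. HNRNPH1 overlapped only between the drugs at 6 h. HNRNPH2 stood at 38.6, 49.3 and 84.2 FPKM in DMSO, at 31.7, 31.5 and 39.8 after 6 h of imatinib and at 22.2, 14.3 and 17.3 after 6 h of JQ1. HNRNPH2 after 24 h was at 20.6, 25.95 and 20.4 FPKM with imatinib, 15.3, 14.4 and 18.2 with JQ1 and 7.99, 16.5 and 9.64 with both. The DMSO libraries of HNRNPH2 spread widely, and the 6 h imatinib group overlapped them. HNRNPH2 changed by -1.26 ± 0.25 after 24 h of imatinib (rescaled 0.43), a call that ends without DMSO replicate 3, where the change was -0.95. HNRNPA0, a single-exon relative of HNRNPA1, was among the least changed members with both drugs. HNRNPA0 values were 204, 253 and 312 FPKM in DMSO, 140.3, 142 and 158 at 6 h of imatinib and 142, 140.5 and 157 at 6 h of JQ1. By 24 h HNRNPA0 held 74.7, 77.3 and 74.2 FPKM with imatinib, 80.9, 92.8 and 108 with JQ1 and 46.7, 92.8 and 55.5 with both drugs. Its combination overlapped either drug alone at 24 h, and its rescaled change with both was 0.41, on a deposited change of -2.002 ± 0.20.

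Several rows share sequence with HNRNPA1 or join neighbouring genes, and how the authors' counting divided such reads is not given, so their values are uncertain. HNRNPA1L2 is a nearly identical retrocopy of HNRNPA1, and HNRNPA1P10 and HNRNPA1P33 are named as its pseudogenes. In DMSO HNRNPA1L2 was at 395, 522 and 623 FPKM, against 348, 323 and 367 with imatinib for 6 h and 187, 179 and 209.99 with JQ1 for 6 h. HNRNPA1L2 after 24 h was at 191, 204 and 188 FPKM with imatinib, 106, 122 and 139 with JQ1 and 53.7, 102 and 68.4 with both. HNRNPA1L2 had the group order of HNRNPA1 itself but for the overlapping 6 h JQ1 and 24 h imatinib groups, where its means were reversed. HNRNPA1P10 stood at 465, 567 and 629 FPKM in DMSO, at 404, 362 and 395 after 6 h of imatinib and at 123, 138 and 131 after 6 h of JQ1. By 24 h HNRNPA1P10 held 149.99, 176 and 121 FPKM with imatinib, 69.3, 93.5 and 118 with JQ1 and 26.6, 62.04 and 41.95 with both drugs. The 6 h JQ1 libraries of HNRNPA1P10 lay far below its 6 h imatinib libraries. HNRNPA1P33 values were 139, 160.1 and 164 FPKM in DMSO, 133, 116 and 140.1 at 6 h of imatinib and 59.1, 68.1 and 71.9 at 6 h of JQ1. HNRNPA1P33 at 24 h read 45.8, 61.9 and 50.02 FPKM with imatinib, 30.8, 33.9 and 39.7 with JQ1 and 15.4, 33.9 and 26.5 in the combination. HNRNPA1P33 overlapped between DMSO and 6 h of imatinib. HNRNPKP3, a pseudogene of HNRNPK, was at 3.56 to 4.66 FPKM in DMSO and 0.191 to 0.338 after 6 h of JQ1. HNRNPUL2-BSCL2 is a read-through of neighbouring genes. HNRNPUL2-BSCL2 stood at 98.4, 113 and 146 FPKM in DMSO, at 79.5, 73.6 and 87.7 after 6 h of imatinib and at 52.2, 55.6 and 56.4 after 6 h of JQ1. By 24 h HNRNPUL2-BSCL2 held 28.3, 28.8 and 26.7 FPKM with imatinib, 40.5, 46.4 and 54.3 with JQ1 and 17.4, 36.5 and 23.3 with both drugs. Its imatinib libraries lay below its JQ1 libraries at 24 h and within the range of the combination.

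The drugs were compared directly at each time. At 6 h, 3 members were lower with JQ1 than with imatinib on the deposited scale (9.36% of all tested genes fell and 1.95% rose): HNRNPA1P10 at -1.56 ± 0.24, HNRNPD at -1.14 ± 0.21 and SRSF8 at -1.10 ± 0.17. After rescaling HNRNPA1P10 stayed lower and HNRNPAB was higher with JQ1 (1.17 ± 0.05), beside 3.32% and 3.44% of all tested genes. Without JQ1 6 h replicate 3 the count on the deposited scale was 5.

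At 24 h, 3 members were higher with JQ1 than with imatinib and 0 lower, where 3.59% of all tested genes rose and 4.88% fell: SNRPG at 1.41 ± 0.19 (adjusted p = 3.6e-06, limma), SRSF2 at 1.34 ± 0.19 and SRSF7 at 1.29 ± 0.17. These 3 also rose after ratio rescaling (3.59% of all tested genes) and at equal totals (2.40%), and for each the 3 JQ1 libraries lay above the 3 imatinib libraries, with means 2.67, 2.61 and 2.54 times higher. The 3 are a share of 3.57% of members, close to that of all tested genes. The SR median was 0.67, the SNRP median 0.66 and the median of all tested genes 0.04. HNRNPAB followed at 0.99 ± 0.21, short of the size of a call. It became 1 without imatinib 24 h replicate 2 (1.03) and without the unnumbered JQ1 library (1.09), and without that library the count was 7. At the other end HNRNPA1 and HNRNPA1L2 were lower with JQ1, at -0.67 ± 0.20 and -0.67 ± 0.20, and SRSF8 was at -0.63 ± 0.17, none of them a call.

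**Figure D5:**
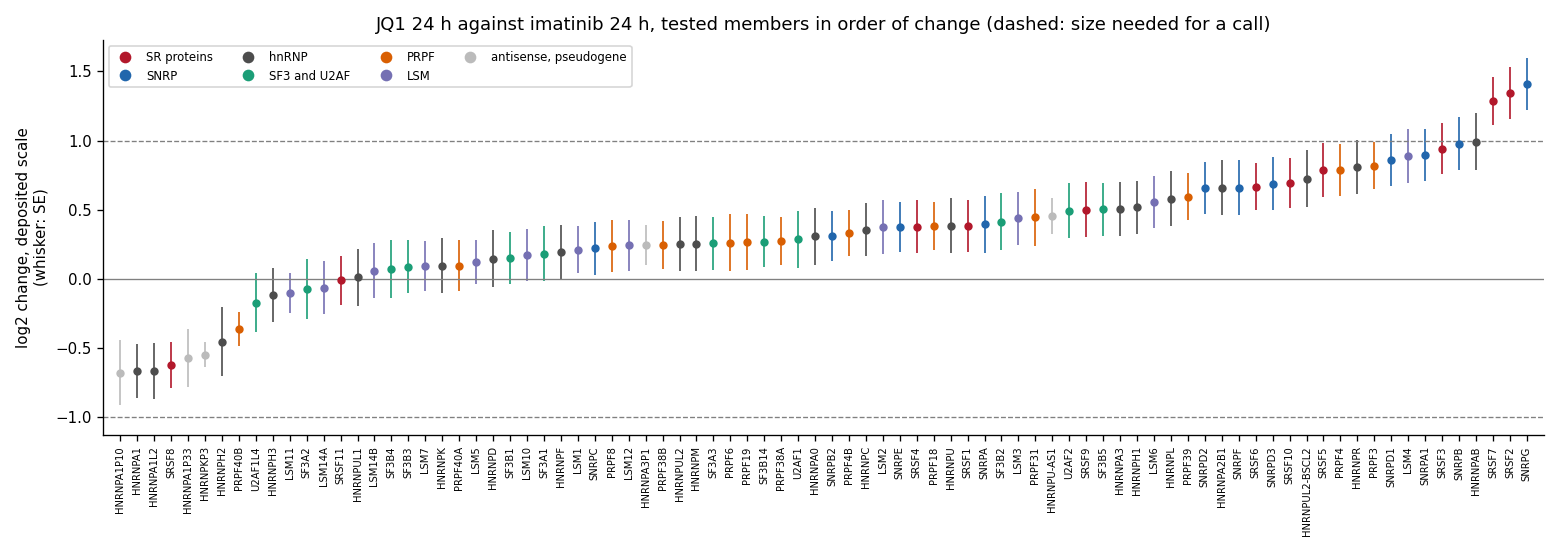
Log2 change of JQ1 24 h against imatinib 24 h on the deposited scale for each tested member in order of change, colored by family; whiskers are SEs, the solid line is 0 and the dashed lines are the size needed for a call. SNRPG, SRSF2 and SRSF7 lie above the upper line at 1.41, 1.34 and 1.29, and HNRNPA1 lies among the lowest at -0.67.

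The combination was set against each drug alone at 24 h. Against imatinib 7 members fell (14.5% of all tested genes): HNRNPA1 at -1.35 ± 0.20, its copies HNRNPA1L2, HNRNPA1P10 and HNRNPA1P33, HNRNPD, SF3A2 and SRSF8. After rescaling HNRNPA1P10 alone fell (-1.14), beside 5.60% of all tested genes. The count was 3 without combination replicate 1, 18 without replicate 2 and 4 without replicate 3. Against JQ1 28 members fell, 33.3% beside 7.35% of all tested genes. The count was 14 without combination replicate 1 and 49 without replicate 2. Of the 28, 9 were SR genes and 6 were SNRP genes. After rescaling SRSF2 (-1.12 ± 0.04) and SRSF7 (-1.21 ± 0.04) fell, 2.38% of members beside 0.814%. For both genes the 3 combination libraries lay below the 3 JQ1 libraries on the deposited scale.

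The times were compared within each drug. From 6 h to 24 h of imatinib 70 members fell (33.4% of all tested genes), and 17 fell after rescaling, 20.2% beside 4.38%. SRSF2 had the lowest change, at -3.19 ± 0.19 (rescaled -2.25), followed by SNRPA1 at -2.59, SNRPB at -2.48 and SRSF3 at -2.46. SRSF7, which had moved most by 6 h, changed by -1.94 over this interval. From 6 h to 24 h of JQ1 19 members fell (14.2%), and 3 after rescaling (3.46%): SRSF2 at -1.70, SRSF6 at -1.21 and HNRNPAB at -1.10 rescaled.

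The interaction asks whether the combination differs from the sum of the single-drug changes on the log2 scale, as combination minus imatinib minus JQ1 plus DMSO. It was positive and called for 73 of 84 members, 86.9% beside 46.8% of all tested genes, where the median of all tested genes was 0.95. A positive value means that the combination fell by less than the changes of the drugs added together. After rescaling 7 members were called, 8.33% beside a positive call in 4.89% of all tested genes. SRSF2 had the highest value, at 2.63 ± 0.27 (rescaled 1.60), then HNRNPAB at 2.26 ± 0.29 (1.25), SRSF7 at 2.24 ± 0.25 (1.19) and SNRPD1 at 2.13 ± 0.27 (1.11).

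Other splicing genes that the symbol patterns miss were counted in 5 lists. After 24 h of imatinib 45 of 48 other core spliceosome proteins fell, 13 of 14 SR kinases and SR-like regulators, 10 of 10 genes of the exon junction complex, 15 of 16 of snRNP assembly and 22 of 24 other regulators, beside 72.1% of all tested genes. Relative to the typical gene the counts were 5, 2, 3, 5 and 3, or 10.4%, 14.3%, 30%, 31.2% and 12.5%, beside 8.75% of all tested genes. The shares of core proteins and of other regulators are near that background, and 2 core proteins and 1 regulator rose, beside 8.80%. TRA2B, an SR-like activator, was lowest at -3.71 (rescaled -1.997). PRMT5 and WDR77, which methylate Sm proteins before the ring is built, changed by -1.35 and -1.44 rescaled with imatinib and by -1.32 and -1.03 with JQ1. The rises were SYF2 (1.34), SLU7 (1.03) and MBNL2 (1.56), a regulator of muscle-type exons, none of which rose on the deposited scale. MBNL2 was also the 1 gene of these lists that rose relative to the typical gene after 6 h of imatinib, at 1.51.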

How the data were processed

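Poly(A) RNA of 18 GIST-T1 libraries was sequenced in stranded single-end reads of 75 bases, per the labels' protocols, after RNA was taken by cell number and ERCC spike-ins were added. The authors deposited 1 table of FPKM per gene, processed with STAR and Cufflinks on hg19 per the submitters' processing notes. The step that set the scale and the strand setting are not given in the sources used here, and depth is unknown. Of 23713 rows, 92 were spike-ins and were left out. A gene that reached 1 FPKM in 3 or more libraries was tested with limma 3.58.1 (R 4.3.3) on log2(FPKM + 1), 1 mean for each of 6 groups, with 12 residual degrees of freedom and Benjamini-Hochberg adjustment. A fold change on this scale understates that of low genes. Members, lists and tests were chosen with earlier results of these data known. Library values are given for a fixed set of 28 members and for the 4 highest and 4 lowest changes relative to the median of all genes in 7 comparisons (5 with DMSO, 2 of JQ1 with imatinib), and for others where a count of calls turned on them or they were seen to differ. Alternatives were both rescalings, a pseudocount of 0.1, the fit without a filter or with a filter on the mean at 5 FPKM, a fit of the compared groups only, a replicate block and leaving out each library. The fit was tested on simulated data. Promoters came from RefSeq (GRCh38.p14) and transcript types from GENCODE release 29, matched by symbol.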

Additional observations from a re-analysis of the deposited data

Results flagged for a closer look

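The effect of adding JQ1 differed between cells with and without imatinib at 24 h, by the interaction term in limma. It was called for 73 of 84 members on the deposited scale, beside a positive call in 46.8% of all tested genes, whose median was itself 0.95. Among the members described above, SRSF2 had an interaction of 2.63, HNRNPAB of 2.26, SRSF7 of 2.24 and SNRPD1 of 2.13 on the log2 scale. After ratio rescaling 7 of 84 members were called, beside a positive call in 4.89% of all tested genes. The share of all tested genes with a negative call is not given here. The 4 named genes remained called, at 1.60, 1.25, 1.19 and 1.11. In each of these 4 genes the fall with imatinib alone and the fall with JQ1 alone sum to more than the fall with both.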

How the results depend on the processing

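The scale moved the counts of called members most. With ratio and total rescaling they were 1 and 1 for imatinib 6 h against DMSO, 2 and 3 for JQ1 6 h, 20 and 17 for imatinib 24 h, 5 and 5 for JQ1 24 h and 21 and 24 for both. They were 1 and 1 for both drugs against imatinib, 2 and 2 against JQ1, 17 and 12 for imatinib 24 h against 6 h, 3 and 2 for JQ1 24 h against 6 h, and 7 and 4 for the interaction. For JQ1 6 h against imatinib 6 h total rescaling gave 1. The counts with total rescaling are given here without the share of all tested genes, and describe only how the calls depend on the scale. On that scale the median change of all tested genes was -0.19 for JQ1 6 h and -0.12 for both drugs against DMSO. A pseudocount of 0.1 gave 5 for JQ1 24 h against imatinib 24 h and 14 for both drugs against imatinib; the cause was not tested. Leaving out 1 library at a time gave 12 to 38 for imatinib 6 h, 48 to 73 for JQ1 6 h, 82 to 83 for imatinib 24 h, 80 to 83 for JQ1 24 h and 84 to 84 for both. It gave 3 to 5 for JQ1 against imatinib at 6 h, 3 to 7 at 24 h, 3 to 18 for both against imatinib, 14 to 49 for both against JQ1, 67 to 72 and 14 to 25 for the times of imatinib and JQ1, and 61 to 77 for the interaction.

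Some changes turned from below 0 to above 0 under ratio and total rescaling. With 24 h of imatinib these were HNRNPA1 (0.49 and 0.56), HNRNPH2 (0.43 and 0.50), LSM14A (0.17 and 0.24), PRPF40B (0.59 and 0.65), PRPF6 (0.39 and 0.47), SF3B14 (0.13 and 0.20) and SRSF8 (0.13 and 0.20), and SNRPD2 with total rescaling alone (0.041). With 24 h of JQ1 they were PRPF6 (0.62 and 0.51), SNRPD2 (0.59 and 0.48) and SNRPG (0.17 and 0.061), and with both drugs HNRNPA0 (0.41 and 0.26), PRPF6 (0.84 and 0.69) and SF3B14 (0.50 and 0.35). At 6 h they were SNRPA with imatinib (0.31 and 0.28) and, with JQ1, HNRNPAB (0.41 and 0.15), SRSF2 (0.30 and 0.049) and SRSF5 (0.40 and 0.15). By construction a rescaling shifts all genes of a library together. In the fits without a filter, with a mean of at least 5 FPKM and with the compared groups only, 0 counts moved by more than 1.5 times.

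Same-numbered libraries did not deviate together: 40 such pairs had correlations from -0.24 to 0.19, 4 of them over 0.1, and 4 of 17 libraries correlated best with their own number. The replicate block gave 22, 66, 83, 82 and 84 called members against DMSO, 3 and 4 for JQ1 against imatinib at 6 h and 24 h, 7 and 28 for both drugs against imatinib and JQ1, 70 and 17 for the times, and 73 for the interaction. It changed 1 call among the named genes, HNRNPAB in JQ1 against imatinib at 24 h (1.01). In that fit the unnumbered JQ1 24 h library formed a block of its own and did not inform the JQ1 24 h mean. The block counts that involve JQ1 24 h, and the HNRNPAB call, therefore mix the block with the loss of that library. Without read counts, no interval for sampling error can be given.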

Other observations

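Outside the symbol patterns, some splicing genes also separated the drugs. TRA2B stood at 208, 269.6 and 306 FPKM in DMSO, at 155, 151 and 171 after 6 h of imatinib and at 168, 155 and 189.8 after 6 h of JQ1. TRA2B after 24 h was at 17.5, 19.4 and 19.5 FPKM with imatinib, 36.9, 39.97 and 46.5 with JQ1 and 6.36, 11.1 and 8.81 with both. TRA2B, an SR-like activator, thus overlapped between the drugs at 6 h, and at 24 h its 3 imatinib libraries lay below its 3 JQ1 libraries, with a log2 change of JQ1 against imatinib of 1.09 ± 0.18 (rescaled 1.06). In DMSO EIF4A3 was at 245, 300.2 and 358 FPKM, against 143, 135 and 158 with imatinib for 6 h and 245, 219.99 and 268 with JQ1 for 6 h. By 24 h EIF4A3 held 50.4, 52.3 and 51.5 FPKM with imatinib, 97.6, 106 and 119 with JQ1 and 49.3, 95.8 and 66.3 with both drugs. EIF4A3, the helicase at the core of the exon junction complex, was higher with JQ1 than with imatinib at both times, by 1.05 ± 0.20 at 24 h (rescaled 1.02). These were the 2 genes of the 5 lists called between the drugs at 24 h after rescaling.

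MBNL2, a regulator of muscle-type exons, was the list gene with the highest rescaled change at 24 h. MBNL2 values were 16.7, 19.6 and 25.6 FPKM in DMSO, 36.1, 32.9 and 40.3 at 6 h of imatinib and 9.46, 9.28 and 9.19 at 6 h of JQ1. MBNL2 at 24 h read 17.4, 21.7 and 19.4 FPKM with imatinib, 13.3, 14.3 and 15.6 with JQ1 and 9.63, 16.9 and 13.6 in the combination. Its 6 h imatinib libraries lay above DMSO and its 6 h JQ1 libraries below, with deposited changes of 0.81 ± 0.18 and -1.05 ± 0.18. After 24 h of JQ1 relative to the typical gene 1 of 48 other core spliceosome proteins fell, 2 of 10 exon junction genes and 3 of 16 snRNP assembly genes (PRMT5, WDR77 and GEMIN4), with 0 of 14 SR kinases and SR-like regulators and 0 of 24 other regulators, where 6.48% of all tested genes fell. MBNL2 rose on that scale (1.11), as did 5.26% of all tested genes. With both drugs the counts that fell were 4, 3, 2, 2 and 4 in that order, beside 10.2% of all tested genes, and TRA2B was lowest, at -4.76 ± 0.18 (rescaled -2.42).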
